A study of Homo sapiens with 4 samples.

Results

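The genes described here are those of polyamine synthesis and catabolism: ODC1, AMD1, SRM and SMS, which make polyamines, SAT1, PAOX and SMOX, which break them down, OAZ1 and OAZ2, the antizymes, and AZIN1, the antizyme inhibitor. They were chosen by gene symbol, and all 10 were found among the 60609 gene identifiers of the table. The cells were CCRF-CEM/HA-AMPKa2, a derivative of CCRF-CEM that carries an HA-tagged catalytic subunit of the energy-sensing kinase AMPK. CCRF-CEM is a long-established human leukaemia line of the T cell lineage. Both groups carried the tagged subunit and were grown in RPMI with 10% serum. For 24 hours, 2 libraries' cells were kept in control medium (Ctrl, CTRL_7 and CTRL_8), and the cells of the other 2 in medium without glucose (No glucose, ONG_9 and ONG_10). The untagged parent line was not part of the comparison, and the labels do not say whether the derivative is 1 clone or a pool.

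Polyamines (putrescine, spermidine and spermine) are small, positively charged molecules that bind RNA and DNA and are needed for growth and translation. Ornithine decarboxylase (ODC1) makes putrescine from ornithine, and S-adenosylmethionine decarboxylase (AMD1) supplies the aminopropyl groups that spermidine synthase (SRM) and spermine synthase (SMS) add in turn. Acetylation by SAT1 followed by oxidation by PAOX, or direct oxidation of spermine by SMOX, runs the pathway backwards. Antizymes bind ODC1 and send it to the proteasome without ubiquitin, they also lower polyamine uptake, and antizyme inhibitor is a catalytically inactive relative of ODC1 that takes antizyme away from it. Proliferating leukaemic lymphocytes are known for high polyamine synthesis, and ODC1 is a textbook transcriptional target of MYC.

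A first set of sequences is shown because ODC1 and SRM, chosen here with their values known, both hold the palindromic E-box CACGTG, the sequence that MYC family proteins are known to bind, in the RefSeq promoter windows (GRCh38.p14, from 250 bases before to 50 bases after an annotated start). Each stretch is written 5′ to 3′ on the gene's strand, with the E-box in capitals. The SRM stretch is chr1:11060172-11060257 on the minus strand, and its E-box begins 199 bases before the annotated start.
SRM: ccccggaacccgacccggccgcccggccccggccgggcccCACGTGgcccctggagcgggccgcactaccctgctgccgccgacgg
The ODC1 stretch is chr2:10448002-10448081 on the minus strand and holds 2 E-boxes, 286 and 320 bases downstream of the most upstream of the gene's RefSeq starts and beside another RefSeq start. Neither lies in an exon of the GENCODE 29 annotation.
ODC1: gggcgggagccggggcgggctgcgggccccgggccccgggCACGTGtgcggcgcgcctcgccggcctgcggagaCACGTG
A window was given for 7 of the 10 genes, and CACGTG, which reads the same on both strands, was in a window of 2 of these 7 and in 7.26% of 35116 windows of the same length. The 7 genes have 10 windows among them, and 2 of these hold CACGTG. SMS, AMD1, OAZ1 and OAZ2, whose mRNA also fell, have no CACGTG in their windows, and neither does SAT1, which rose. ODC1 has it in 1 of its 2. Of other promoter motifs, searched on both strands, GGGCGG was in 9 of the 10 windows and in 45.0% of all windows. CCAAT was in 5 of the 10 and 34.6% of all windows, TGACG in 7 and 24.6%, and TATAA in 4 and 20.4%. Windows of 1 gene can overlap, as those of AMD1 do, and are then not separate. CACGTG contains none of these other motifs, and a match describes letters only.

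A second pair of sequences shows what OAZ1 and OAZ2 share. Antizyme mRNAs are read through a +1 ribosomal frameshift that polyamines promote, so that the protein is made when polyamines are plentiful. The frameshift site is printed 5′ to 3′ with the last codon of the first frame and the stop codon that follows it in capitals, from GENCODE 29 transcripts on GRCh38. The OAZ1 site is chr19:2271428-2271457 on the plus strand and the OAZ2 site chr15:64691501-64691530 on the minus strand.
OAZ1: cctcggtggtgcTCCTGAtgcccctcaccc
OAZ2: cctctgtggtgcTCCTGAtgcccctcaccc
The sites are identical at 29 of 30 bases. RNA-seq measures the amount of these mRNAs and not how often ribosomes shift frame on them.

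Recovered reads per library were 96698709 in CTRL_7, 24513840 in CTRL_8, 19035535 in ONG_9 and 20081266 in ONG_10, so CTRL_7 was the deepest. A normalized count is the read count divided by the library's size factor, and 3 reads were worth 1.03 normalized counts in CTRL_7 and 4.01 to 4.55 in the others. T lineage markers fitted the label, with 11 of 12 at a mean of at least 10 (PTCRA was below) and sums of 65457 to 66611 in Ctrl and 66910 to 67746 in No glucose. Members of that list moved both ways: the means of TRAC were 86.5 in Ctrl and 852 in No glucose, those of TRBC1 218 and 390 and those of CD3E 5905 and 8591, while those of CD7 were 711 and 397 and those of CD3G 10088 and 7373, all called. Of the other marker lists, B cell sums were 894 to 907 in Ctrl and 523 to 536 in No glucose (CD79A, CD79B and PAX5, with MS4A1 at 0 or 1 read), adherent cell sums 1659 to 1687 and 1075 to 1204 (mostly PECAM1 and EPCAM, while COL1A1 was called higher, at 2.37 and 16.4 on average), myeloid sums 39.5 to 44.1 and 33.4 to 54.7, and erythroid sums at most 7.02. MPO and HBB, of the last lists, had 0 reads. Their part in the results was not tested. The tagged gene PRKAA2 gave 409 normalized counts in each Ctrl library and 670 and 662 in ONG_9 and ONG_10. PRKAA2 was thus called higher without glucose, by 0.70 on the log2 scale (SE 0.08, limma adjusted p = 4.5e-05). Endogenous and tagged transcripts cannot be told apart in these counts. Fold changes are No glucose minus Ctrl on the scale log2(normalized count + 1), and adjusted p-values are from limma with Benjamini-Hochberg adjustment over 27486 genes, two-sided, with a threshold of 0.05. Whether the 2 libraries of a group came from separate cultures is not stated, so the p-values reflect only how far these libraries differ, which may be technical variation.

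Without glucose, mRNA of all 4 polyamine synthesis enzymes fell, to between 33.2% and 62.5% of the Ctrl mean. OAZ1, OAZ2 and AZIN1 also fell, to between 63.1% and 84.9%, and SAT1, which starts catabolism, rose to 123% of the Ctrl mean. PAOX and SMOX were low in every library and passed no test. In all, 7 of the 10 genes were lower and 1 higher at the threshold, beside 20.7% lower and 14.4% higher of all genes tested. All 10 had passed the filter on low values. Without CTRL_7 or CTRL_8, 5 or 6 were lower and 0 higher, and 4 were lower and 0 higher when the genes tested were those that had passed the filter over all 4 libraries. The 4 that remained lower in those fits were ODC1, AMD1, SRM and SMS. Among the 10656 protein-coding genes whose mean normalized count reached 50, a class that holds 8 of the 10, 47.2% were lower and 18.9% higher. The median log2 fold change was -0.59 over the 10 genes and -1.08 over the synthesis enzymes, beside 0.04 over all genes tested and -0.20 over those protein-coding genes. The libraries of the 2 groups did not overlap for 9 of the 10 genes, 8 of them lower and 1 higher without glucose. They did not overlap for 66.8% of all genes tested and for 85.3% of the abundant protein-coding genes. The count is near the background of the latter, a class that leaves out PAOX and SMOX and so is not matched to all 10 genes. In RNA from whole cultures, a change in every cell and a change in the share of cells that express a gene cannot be told apart.

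**Figure D1:**
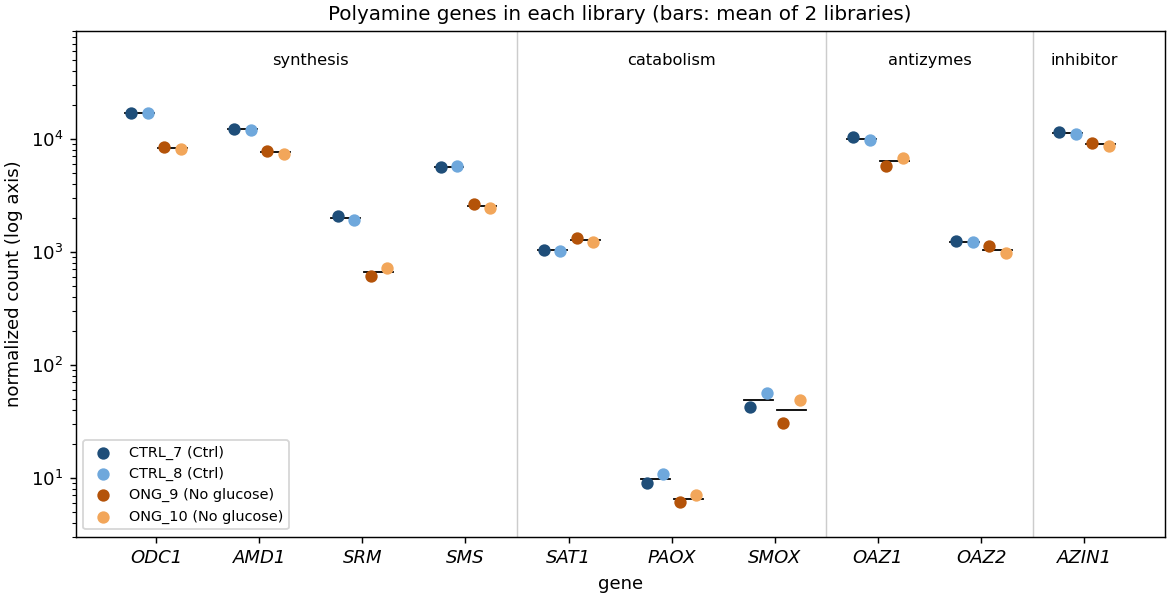
Normalized count (log axis) of each of the 10 polyamine genes in the 4 libraries, with a bar at the mean of the 2 libraries of a group. The 4 synthesis enzymes have both No glucose points below both Ctrl points, SAT1 has them above, and the points of SMOX overlap.

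ODC1 (chromosome 2, 10439968 to 10448504, GRCh38), the first and most regulated enzyme of synthesis, had 16869 and 16902 normalized counts in CTRL_7 and CTRL_8 and 8494 and 8227 in ONG_9 and ONG_10. The Ctrl libraries were nearly equal and both No glucose libraries lay far below them. The mean was 16886 ± 23 (SD, n = 2) in Ctrl and 8360 ± 189 (SD, n = 2) in No glucose. ODC1 fell by 1.01 on the log2 scale (SE 0.05, limma adjusted p = 7.5e-08), which left 49.5% of the Ctrl mean. Of the 10656 protein-coding genes, 7.24% had a lower log2 fold change. SNORA80B, a small nucleolar RNA encoded within ODC1 on the same strand, went the other way in its counts, with 50.8 and 49.5 in Ctrl and 97.0 and 138 in No glucose.

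AMD1 (chromosome 6, 110874770 to 110895713), the decarboxylase that feeds both aminopropyl transfers, had 12224 and 12116 normalized counts in Ctrl and 7802 and 7404 in No glucose. The groups were apart, and the fall was the least of the 4 enzymes. AMD1 fell by 0.68 (SE 0.05, limma adjusted p = 1.5e-06), to 62.5% of the Ctrl mean. Its pseudogenes AMD1P1 to AMD1P4 held at most 9.10 normalized counts in any library.

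SRM (chromosome 1, 11054584 to 11060024), which turns putrescine into spermidine, had 2071 and 1932 normalized counts in Ctrl and 613 and 717 in No glucose. These values were the farthest apart, relative to their level, of any of the 10 genes. SRM fell by 1.59 (SE 0.09, limma adjusted p = 1.5e-07), to 33.2% of the Ctrl mean, and 1.13% of the 10656 protein-coding genes had a lower log2 fold change. The pseudogene SRMP2 had 11.7 and 6.69 normalized counts in Ctrl and 27.3 and 23.9 in No glucose.

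SMS (chromosome X, 21940573 to 21994835), which turns spermidine into spermine, had 5669 and 5724 normalized counts in Ctrl and 2678 and 2451 in No glucose. SMS fell by 1.15 (SE 0.06, limma adjusted p = 1.3e-07), to 45.0% of the Ctrl mean. From the largest fall to the smallest, the order within synthesis was SRM, SMS, ODC1 and AMD1. All 4 were called lower in each of the 17 other fits tried, with log2 fold changes of -1.71 to -1.38 for SRM and -0.72 to -0.47 for AMD1.

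SAT1 (chromosome X, 23783173 to 23786226), the acetyltransferase that marks spermidine and spermine for export or oxidation, had 1047 and 1022 normalized counts in Ctrl and 1328 and 1222 in No glucose. Both No glucose libraries were above both Ctrl libraries, by a small margin. The means were 1034 ± 18 and 1275 ± 75 (SD, n = 2 each). SAT1 rose by 0.30 (SE 0.07, limma adjusted p = 0.0072), and 83.5% of the protein-coding genes had a lower log2 fold change. The call was lost when CTRL_7 (adjusted p = 0.12) or CTRL_8 (adjusted p = 0.16) was left out of the limma fit.

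PAOX (chromosome 10, 133379234 to 133391694), the oxidase of acetylated polyamines, rested on 26 and 8 reads in Ctrl and on 4 and 5 in No glucose, or 8.93, 10.7, 6.06 and 7.02 normalized counts. Its log2 difference was -0.52 (SE 0.44, limma adjusted p = 0.41), and no difference was detectable at this depth. AL360181.3, which overlaps PAOX, had more reads than PAOX, with 54, 14, 10 and 15 in the 4 libraries. SMOX (chromosome 20, 4120980 to 4187747), the spermine oxidase, had 41.9 and 56.2 normalized counts in Ctrl and 30.3 and 49.1 in No glucose, from 122, 42, 20 and 35 reads. The SMOX groups overlapped, with a log2 difference of -0.32 (SE 0.27, limma adjusted p = 0.41), and without ONG_9 the difference was 0.02.

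OAZ1 (chromosome 19, 2269509 to 2273490), the main and widely expressed antizyme, had 10320 and 9763 normalized counts in Ctrl and 5821 and 6853 in No glucose. Its No glucose libraries had an SD of 730, the highest of the 10 genes, and still lay below both Ctrl libraries. OAZ1 fell by 0.67 (SE 0.07, limma adjusted p = 2.5e-05), to 63.1% of the Ctrl mean. With the genes tested held fixed, its adjusted p was 0.072 without CTRL_7 and 0.060 without CTRL_8. OAZ2 (chromosome 15, 64687573 to 64703281), its less abundant paralog, had 1244 and 1223 normalized counts in Ctrl and 1119 and 975 in No glucose. OAZ2 fell by 0.24 (SE 0.08, limma adjusted p = 0.039), close to the median of -0.20 over the abundant protein-coding genes, and was not called in the authors' deposited table (adjusted p = 0.077). OAZ2 lost its call in 10 other fits, among them those without CTRL_7 (adjusted p = 0.30), CTRL_8 (0.24) or ONG_10 (0.081).

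AZIN1 (chromosome 8, 102826357 to 102893864), which frees ODC1 from antizyme, had 11457 and 11154 normalized counts in Ctrl and 9266 and 8716 in No glucose. The groups did not overlap, and AZIN1 fell by 0.33 (SE 0.05, limma adjusted p = 0.00042), to 79.5% of the Ctrl mean. This was within the middle range of the 10656 abundant protein-coding genes, whose median was -0.20. Of them, 40.3% had a lower log2 fold change. The antisense gene AZIN1-AS1 held 56.3 to 65.9 normalized counts. The counting strand is not given in the sources used here, but these counts are small beside those of AZIN1. Leaving out CTRL_7 gave AZIN1 an adjusted p of 0.090, and with the genes tested held fixed it was 0.14 without CTRL_7 and 0.13 without CTRL_8.

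Divided by library totals in place of size factors, all values moved up: the median was 0.23 over all genes tested and 0.01 over the abundant protein-coding genes, with 6106 genes higher and 3818 lower (22.2% and 13.9%), against 3948 higher and 5695 lower with size factors. On that scale 6 of the 10 genes were lower and 1 higher. ODC1 was at -0.80, AMD1 at -0.47, SRM at -1.38, SMS at -0.94, OAZ1 at -0.46, AZIN1 at -0.12 (adjusted p = 0.031) and SAT1 at 0.51. OAZ2 was at -0.03 (adjusted p = 0.78) and was not called. The groups overlapped for 2 of the 10 genes on that scale. In the authors' deposited table, 6 of the 10 genes were lower and 1 higher at an adjusted p under 0.05, with log2 fold changes of -1.01 for ODC1, -1.59 for SRM and 0.30 for SAT1.

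**Figure D2:**
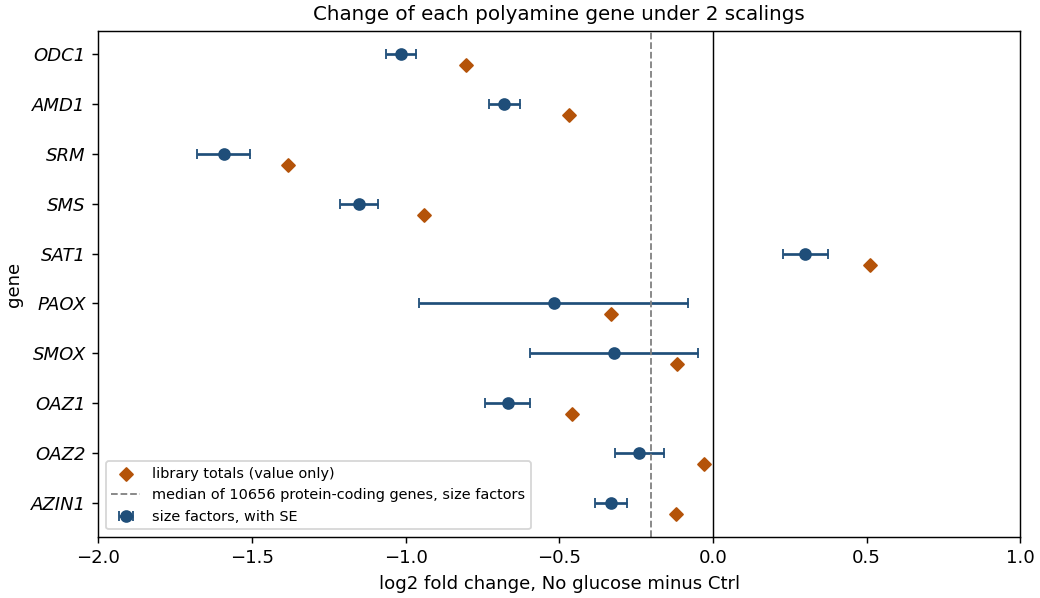
Log2 fold change (No glucose minus Ctrl) of the 10 polyamine genes with size factors (circles, bars are SE) and with library totals (diamonds, no error drawn). The dashed line is the median of 10656 protein-coding genes with size factors, -0.20. With library totals that median was 0.01 and is not drawn. The synthesis enzymes lie to the left of the line under both scalings and SAT1 to the right of 0.

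Synthesis was then set against catabolism and antizymes. The mean log2 fold change was -1.11 over ODC1, AMD1, SRM and SMS and -0.29 over SAT1, PAOX, SMOX, OAZ1 and OAZ2. Of the latter 5 genes, 2 fell, 1 rose and 2 were not called, beside 20.7% lower and 14.4% higher of all genes tested. Within each library, the mean log2 level of the 4 synthesis genes minus that of the 5 others was 4.30 in CTRL_7, 4.17 in CTRL_8, 3.50 in ONG_9 and 3.34 in ONG_10. Both No glucose libraries were lower, by 0.82 on average, with a pooled SD between libraries of 0.10. When PAOX and SMOX, the genes with few reads, were left out, the values were 1.56, 1.58, 0.65 and 0.68, a difference of -0.91. These scores describe chosen genes and carry no test.

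A ratio of normalized counts between 2 genes of a library does not depend on its scaling, and 12 pairs were compared. The log2 changes carry a pseudocount of 1, which bears on the pairs with PAOX or SMOX. With 2 libraries against 2, the exact permutation test cannot give a two-sided p below 0.333. The ratio of ODC1 to SAT1 normalized counts was 16.1 and 16.5 in Ctrl and 6.39 and 6.73 in No glucose, a log2 change of -1.31 (pooled SD 0.04). The ratio of AMD1 to SAT1 was 11.7 and 11.9 in Ctrl and 5.87 and 6.06 in No glucose, a log2 change of -0.98. In both ratios of synthesis to catabolism the Ctrl libraries were nearly equal, and both No glucose libraries lay far below them. ODC1 against AZIN1 went from 1.47 and 1.52 to 0.917 and 0.944, a log2 change of -0.68 (pooled SD 0.03). ODC1 against OAZ1, the enzyme and its main inhibitor, changed less, from 1.63 and 1.73 to 1.46 and 1.20, a log2 change of -0.35 (pooled SD 0.15). AZIN1 against OAZ1 moved up from 1.11 and 1.14 to 1.59 and 1.27, a log2 change of 0.34 (pooled SD 0.16). The rise of AZIN1 against OAZ1 was in both No glucose libraries, more so in ONG_9.

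OAZ1 to OAZ2 went from 8.30 and 7.99 to 5.20 and 7.03, a log2 change of -0.43. Within synthesis, SRM to SMS went from 0.365 and 0.337 to 0.229 and 0.293 (log2 change -0.44), ODC1 to SRM from 8.15 and 8.75 to 13.9 and 11.5 (log2 change 0.58), and ODC1 to AMD1 from 1.38 and 1.40 to 1.09 and 1.11 (log2 change -0.34, pooled SD 0.02). These 3 ratios differed from Ctrl in both No glucose libraries, in the direction that the unequal falls of the 4 enzymes give. SAT1 to PAOX had a log2 change of 0.82, on few PAOX reads (0.66 with a pseudocount of 5). SAT1 to SMOX (0.62) and SMOX to PAOX (0.20, or 0.066 with a pseudocount of 5) overlapped between groups. The exact permutation p was 0.333 for the 10 ratios whose groups did not overlap and 0.667 for the other 2. Adjusted over the 12 pairs, these became 0.4 and 0.667.

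**Figure D3:**
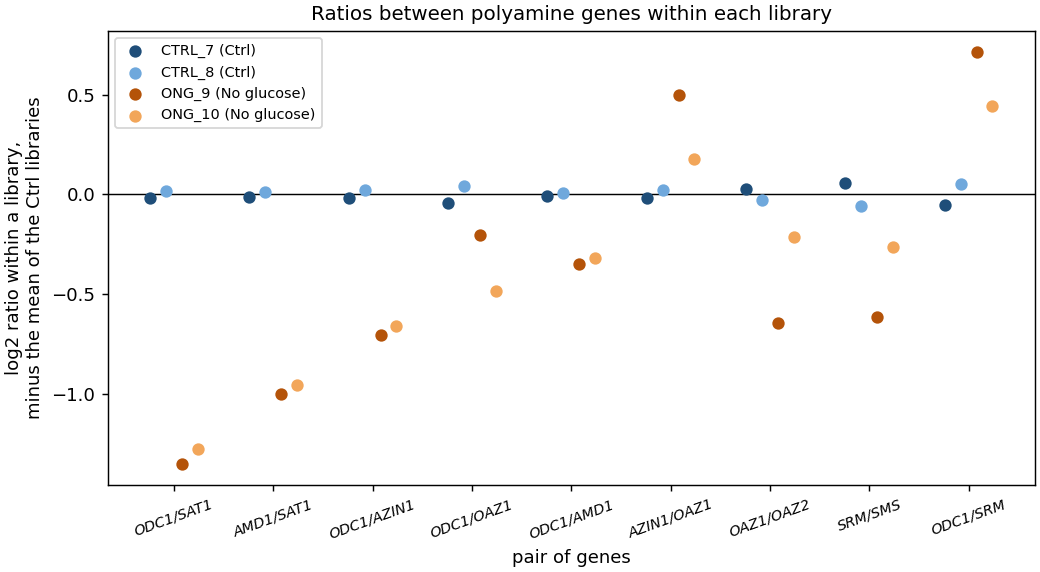
Log2 ratio of normalized counts (pseudocount 1) between pairs of polyamine genes in each library, minus the mean of the 2 Ctrl libraries, for 9 of the 12 pairs. The Ctrl points lie close to 0. Of the pairs drawn, ODC1/SAT1 is the lowest (mean change -1.31) and ODC1/SRM the highest (0.58). The pairs SAT1/PAOX (0.82) and SAT1/SMOX (0.62) are not drawn.

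Per kilobase of merged GENCODE 29 exons, which may overstate the length of the transcripts in use, ODC1 had the highest level in both groups, with 5689 normalized counts per kilobase in Ctrl and 2817 in No glucose. In Ctrl the order after it was OAZ1 (2923), SMS (2637), AZIN1 (1759), AMD1 (1732), SRM (1054), SAT1 (414), OAZ2 (161), SMOX (16.6) and PAOX (4.31). AZIN1 and AMD1 were not separated there, since their libraries overlapped (1783 and 1736 against 1740 and 1724). In No glucose the order was ODC1, OAZ1 (1844), AZIN1 (1399), SMS (1187), AMD1 (1082), SAT1 (510), SRM (350), OAZ2 (136), SMOX (13.5) and PAOX (2.87). SAT1 and SRM thus changed places: SRM was above SAT1 in both Ctrl libraries (1091 and 1018 against 419 and 409), and below it in both No glucose libraries (323 and 378 against 532 and 489). AZIN1 likewise passed SMS, with 1442 and 1356 against 1240 and 1135 in No glucose. SMS and AMD1 were near each other in No glucose (1240 and 1135 against 1110 and 1054), although their libraries did not overlap.

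Around these 10 genes, a wider list of 34 genes of polyamine metabolism was described by role, of which 29 were tested. In it 16 fell and 7 rose, with a median log2 fold change of -0.43. Of all genes tested 20.7% were lower and 14.4% higher, and of the abundant protein-coding genes 47.2% and 18.9%. The abundant class leaves out low genes of the list, among them OAZ3, SATL1, ARG1 and MTAP, none of which was called lower. The list is thus not compared like for like with that class, and whether it differs from it was not tested. With library totals 11 fell and 8 rose, beside 13.9% lower and 22.2% higher of all genes tested. The share of abundant protein-coding genes called was not worked out on that scale. Without CTRL_8, 13 fell and 3 rose, and with the genes tested held fixed 4 fell and 1 rose without CTRL_7 or without CTRL_8, and 14 fell and 4 rose without ONG_9. All 5 genes of hypusination were lower with size factors. Hypusine is an amino acid made from spermidine on the translation factor eIF5A by DHPS and then DOHH. EIF5A had 10596 and 10146 normalized counts in Ctrl and 3054 and 3570 in No glucose. It fell by 1.65 (SE 0.07, limma adjusted p = 4.4e-08), and 0.882% of the protein-coding genes had a lower value. That was close to the fall of SRM (1.59, SE 0.09), the largest of the 10 genes, and not separated from it. EIF5AL1, a near-identical copy whose reads the counting may have shared with EIF5A, had 80.7 and 80.3 in Ctrl and 22.7 and 30.9 in No glucose and its value of -1.57 is uncertain for that reason. DOHH was at -0.72 (adjusted p = 0.026), DHPS at -0.46 (0.018) and EIF5A2 at -0.35 (0.0075), by limma. DOHH had unlike No glucose libraries, with 117 and 212 normalized counts against 287 and 237 in Ctrl, and without ONG_9 it was at -0.30 (adjusted p = 0.086). With library totals EIF5A and EIF5AL1 were called and DOHH (adjusted p = 0.17), DHPS (0.18) and EIF5A2 (0.20) were not. With the genes tested held fixed, EIF5A was the 1 gene of the 5 that kept its call without CTRL_7 and without CTRL_8.

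Salvage of methylthioadenosine, the by-product of both aminopropyl transfers, gave 3 lower genes of 5 tested. Beside them, 20.7% of all genes tested and 47.2% of the abundant protein-coding genes were lower. ENOPH1 fell by 1.03 (SE 0.06, limma adjusted p = 2.2e-07), MRI1 by 0.77 and APIP by 0.59, while ADI1 (0.29, adjusted p = 0.089) was not called. MTAP, the first enzyme of the salvage, was near 20 normalized counts in every library (19.6, 20.1, 22.7 and 23.9, from 57, 15, 15 and 17 reads). It was not called (limma adjusted p = 0.61). Per kilobase of merged exons MTAP had 1.36 in Ctrl and 1.59 in No glucose, beside 2419 and 1185 for ENOPH1. The first step was thus very low in mRNA in both groups. Of the genes that supply S-adenosylmethionine, MAT2A, the catalytic subunit, fell by 0.43 and MAT2B, its regulator, was at -0.15 (adjusted p = 0.10). MAT1A, the liver form, had at most 3 reads in a library and was not tested.

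The arginases, which make ornithine, went the other way. ARG2, the mitochondrial arginase, had 270 and 266 normalized counts in Ctrl and 538 and 463 in No glucose. ARG2 rose by 0.90 (SE 0.10, limma adjusted p = 3.8e-05). ARG1, the liver arginase, rose by 1.31 (SE 0.31, limma adjusted p = 0.0057) on few reads, 48 and 9 in Ctrl and 27 and 23 in No glucose, and without CTRL_8 its adjusted p was 0.065. AGMAT, annotated as an agmatinase, was at -0.59 with a limma adjusted p of 0.047 and lost its call in 14 other fits. OAT, the ornithine aminotransferase, had 4 reads in CTRL_7 and 0 in the other libraries.

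Among paralogs of the 10 genes, SAT2, a relative of SAT1 that acetylates thialysine, had 98.6 and 103 normalized counts in Ctrl and 203 and 257 in No glucose. SAT2 rose by 1.17 (SE 0.15, limma adjusted p = 6.7e-05). AZIN2, the second antizyme inhibitor, rose by 0.57 (SE 0.20, limma adjusted p = 0.044), from 48.1 and 45.5 to 63.7 and 77.2 normalized counts, and lost its call in 10 other fits, among them those without CTRL_7 (adjusted p = 0.18), CTRL_8 (0.25) or ONG_10 (0.16). OAZ3, the testis antizyme, and SATL1 were low and were not called.

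Transport was mixed, with 4 lower and 3 higher genes of 7 tested. This stood beside 20.7% lower and 14.4% higher of all genes tested, and 47.2% and 18.9% of the abundant protein-coding genes. SLC7A1, the cationic amino acid carrier that brings in arginine and ornithine, fell by 0.93 (SE 0.06, limma adjusted p = 3.6e-07). The lysosomal polyamine exporter ATP13A2 fell by 0.84, the vesicular transporter SLC18B1 by 0.63 and ATP13A3, a polyamine transporter of the endosome, by 0.48. ATP13A4 rose by 0.56 and SLC3A2, the heavy chain of several amino acid carriers, by 0.31 (not called without CTRL_7, adjusted p = 0.081, or CTRL_8, 0.095). SLC22A2 and SLC22A3 had 0 reads in all libraries. Of aldehyde dehydrogenases and the polyamine deacetylase, ALDH7A1 fell by 0.83, ALDH9A1 fell by 0.22 (but was at -0.01 with library totals, and was not called without CTRL_7 or CTRL_8), HDAC10 was not called (0.21, adjusted p = 0.49), and ALDH1A1 had 0 reads.

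**Figure D4:**
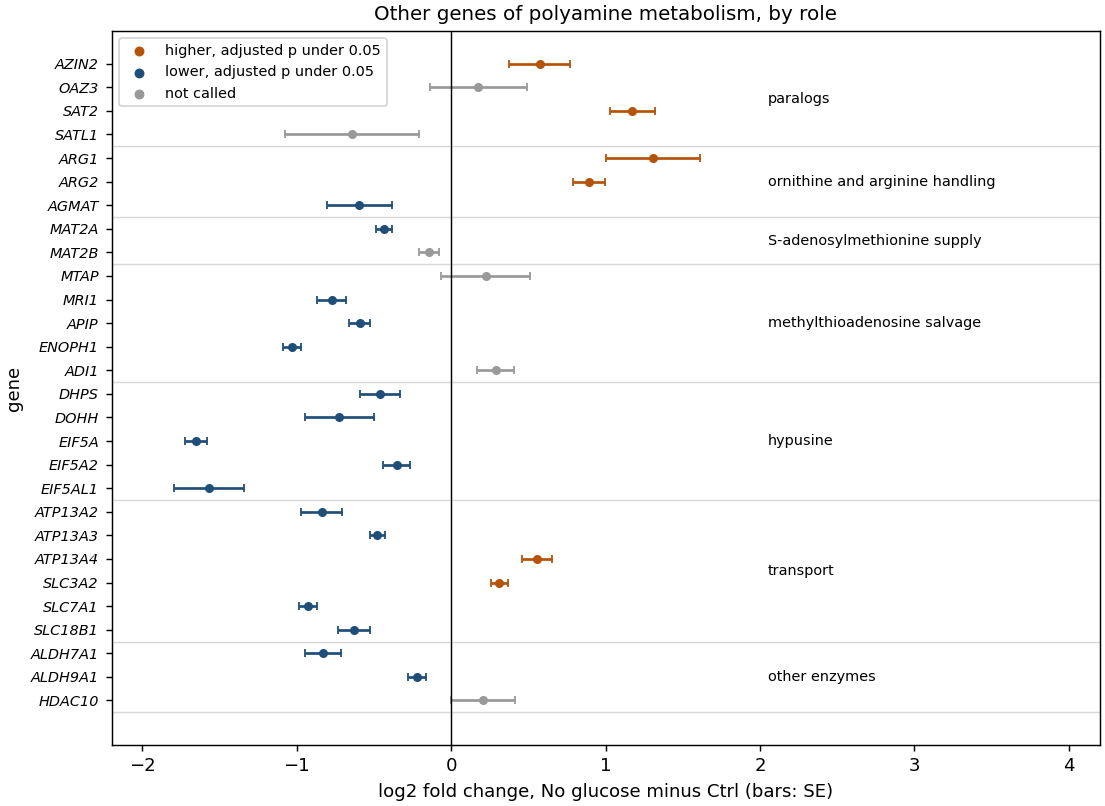
Log2 fold change (No glucose minus Ctrl, bars are SE) of tested genes of the wider list, grouped by role and coloured by the limma call. All 5 hypusine genes lie to the left of 0 with EIF5A at -1.65, while both arginases lie to the right (ARG1 1.31, ARG2 0.90).

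MYC had 10227 and 9909 normalized counts in Ctrl and 3692 and 3751 in No glucose. It fell by 1.44 (SE 0.05, limma adjusted p = 1.6e-08), to 37.0% of the Ctrl mean, between the falls of SRM and SMS. The 4 libraries are too few for a correlation between MYC and a polyamine gene.

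The protein-coding genes nearest to ODC1 in pattern over the 4 libraries, by Euclidean distance of centred log2 values, were TPM3 (distance 0.0095), KCTD12 (0.019) and HAUS1 (0.019). TPM3, a tropomyosin, had 14967, 15015, 7599 and 7337 normalized counts, somewhat below those of ODC1 in each library. For SAT1 they were KLF12 (0.0080), CEP95 (0.010) and ZXDB (0.014), and KLF12, a transcriptional repressor, had 4990, 4868, 6285 and 5812. Such genes were picked as the nearest of many over 4 libraries, so small distances come with the search and carry no test.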

How the data were processed

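Total RNA of 4 libraries (2 per group) was sequenced on stranded total RNA libraries with single-end reads, per the labels' protocols. Reads were processed with STAR 2.6.0c, RSEM 1.3.0 and DESeq2 1.18.1 on hg38, per the submitters' processing notes; annotation release and counting strand are not given in the sources used here. The deposited signal values are the authors' normalized counts, 1 size factor having been applied to each library. Dividing by the smallest step returned whole numbers (within 0.01) for 100% of values. These are called reads here, and they may be rounded estimates of reads per gene. The log2 fold changes with their errors, the test statistics (a score) and the p-values of the authors' own comparison were deposited in the same table and are quoted for the 10 members only. Columns beginning with ONG were read as No glucose, since the table names only these 2 groups.

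limma 3.58.1 (trend, R 4.3.3) was run on genes whose mean normalized count reached 1, as log2(normalized count + 1), without a replicate block. edgeR 4.0.16, DESeq2 1.42.0 and limma-voom on recovered reads, other scalings, pseudocounts (0.5 and 5) and filters, and leaving out each library were alternatives. Depth differed between libraries, so values of low genes are least precise in the 3 shallower ones.

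The members, the wider list and the marker lists were chosen with earlier results of these data known, and the promoter motifs after the windows had been seen. Named were all 10 members, called genes of the wider list that moved by 0.5 or more on the log2 scale, PRKAA2, MYC, pseudogenes and overlapping genes, and the 3 nearest patterns of ODC1 and SAT1. Other genes named by role, among them those not called or under 0.5, were added after their values were seen. A gene of the wider list that is counted is not reported here by name. No promoter window was used for PAOX, SMOX or AZIN1. Of 60609 identifiers, 58457 matched GENCODE 29, the source of coordinates and exon lengths.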

Additional observations from a re-analysis of the deposited data

How the results depend on the processing

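Of 625 comparisons of a value with an alternative setting, 534 were counted as the same and 3 reversed. The other 88 lost a call or fell by more than 1.5 times as a count. For a gene, the same meant an unchanged direction and side of the threshold, also where it was never called. Relative to the median protein-coding gene, it meant direction alone. Counts had to stay within 1.5 times, and scores and ratios within the pooled SD. The reversals were all of SMOX, which was never called: 0.029 in edgeR with library totals and 0.017 without ONG_9, with either filter, against a lowest value of -0.66 without ONG_10. The plan to leave out each library did not say how genes would be filtered. It was first run with the genes kept that passed the filter over all 4 libraries, and then, after those values were seen, with the filter applied again to the other 3. With refiltering, 5 to 7 of the members were lower and 0 to 1 higher; without it, 4 to 7 were lower and 0 to 1 higher. The calls lost without refiltering, when CTRL_7 or CTRL_8 was out, were those of OAZ1 (adjusted p = 0.072 and 0.060), AZIN1 (0.14 and 0.13), OAZ2 (0.33 and 0.32) and SAT1 (0.16 and 0.21). All genes called then numbered 726 higher and 1573 lower without CTRL_7, and 635 and 1691 without CTRL_8. In the wider list, 4 to 15 genes were lower and 1 to 7 higher over both kinds of leaving out, and DESeq2 called 4 higher; AZIN2, ARG1, AGMAT and DOHH lost their calls in 5 to 14 fits each. DESeq2 called 2436 genes higher of all tested. A lone library in a group is assumed to vary like the others. OAZ2 lost its call in 10 fits. Synthesis minus catabolism and antizymes ranged from -0.90 to -0.74. The cause of these changes was not tested. PAOX, with 4 to 26 reads, could not be tested at a mean of at least 10. No paired analysis was possible because the columns of the table carry no replicate numbers that match those of the labels.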
